A study of Mus musculus with 108 samples.

Results

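Intermediate filament genes were followed through the developing brain of Cul3+/- mice and wild-type (WT) controls. They are 8 of the 53465 genes in the deposited counts: the neurofilament triplet Nefl, Nefm and Nefh, the neuronal genes Ina (alpha-internexin) and Prph (peripherin), the progenitor genes Vim (vimentin) and Nes (nestin), and the astrocyte gene Gfap. The family was chosen by its measured levels, which differed between brain regions and periods, so every level by region or period is given as a description, without a test. Genotype was tested, each time over all genes.

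Intermediate filaments are rope-like polymers that give cells tensile strength. In neurons, the light, medium and heavy neurofilament subunits assemble with alpha-internexin in the central nervous system, and peripherin joins them in neurons that project to the periphery. The long tails of the medium and heavy subunits carry many phosphorylation sites and set the spacing of filaments in thick axons. Alpha-internexin is made early in neuronal differentiation and the heavy subunit late. Neural progenitors hold vimentin and nestin, while mature astrocytes hold GFAP beside vimentin. Cul3 codes for the scaffold of a ubiquitin ligase. The study asks what the loss of 1 Cul3 copy changes in the brain. The values here are RNA levels and say nothing of protein.

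RNA was sequenced from the cerebellum (CB), the cerebral cortex (CX) and the hippocampus (HIP) of each of 36 mice on a C57BL/6N background (C56Bl/6N in the labels), at embryonic day E17.5, postnatal day P7 and adulthood (P35). Cul3+/- mice (HET in the labels) carry a frame-shifting insertion in an exon of Cul3, made by genome editing in the germline of a single founder, so the mutation is present in all cells of the body. WT mice carry both intact copies. Each period held 6 WT and 6 Cul3+/- mice, which makes 108 libraries. For 2 adult mice the sample labels and the sample table of the study gave opposite genotypes, so their 6 libraries were left out, and adults are 5 against 5 mice. The Cul3 RNA levels of these mice were on the side of their labels, as given below. Sex was not a term in the fits. The labels do not say which mice shared a litter, so p-values measure the spread between these animals.

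Library totals ran from 15126114 to 44411282 expected counts. Cul3 itself was lower in Cul3+/- than in WT mice in all 9 combinations of period and region, by 0.74 to 0.99 on the log2 scale, and the ranges of the genotypes did not overlap. In E17.5 CX, for example, Cul3 was at 198 ± 6.34 CPM in WT and at 115 ± 3.65 CPM in Cul3+/- mice (SD, n = 6 each). CPM are expected counts scaled to a common library size after normalisation by the trimmed mean of M values (TMM). The left-out adult labelled Cul3+/- had Cul3 at 95.7 CPM in CX, 99.0 in HIP and 121 in CB. The left-out adult labelled WT had 196, 203 and 227 CPM. Among the other adult libraries, the lowest labelled WT was at 160 CPM and the highest labelled Cul3+/- at 129 CPM. In WT mice, the sums of cerebellar and of hippocampal marker genes were highest in CB and HIP without overlap at every period. Cortical marker sums set CX apart at E17.5 and overlapped between CX and HIP at P7 and P35. At E17.5, the 4 mice whose names carry the prefix S3 stood apart, as described beside the results they touch. In bulk tissue, fewer cells of a type and less RNA per cell cannot be told apart.

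All 8 genes passed the low-count filter in 8 of the 9 datasets. In P35 CB, 7 of 8 passed and Prph was too low to test. The levels of every gene and mouse are drawn in the plot of CPM by region and period.

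**Figure D1:**
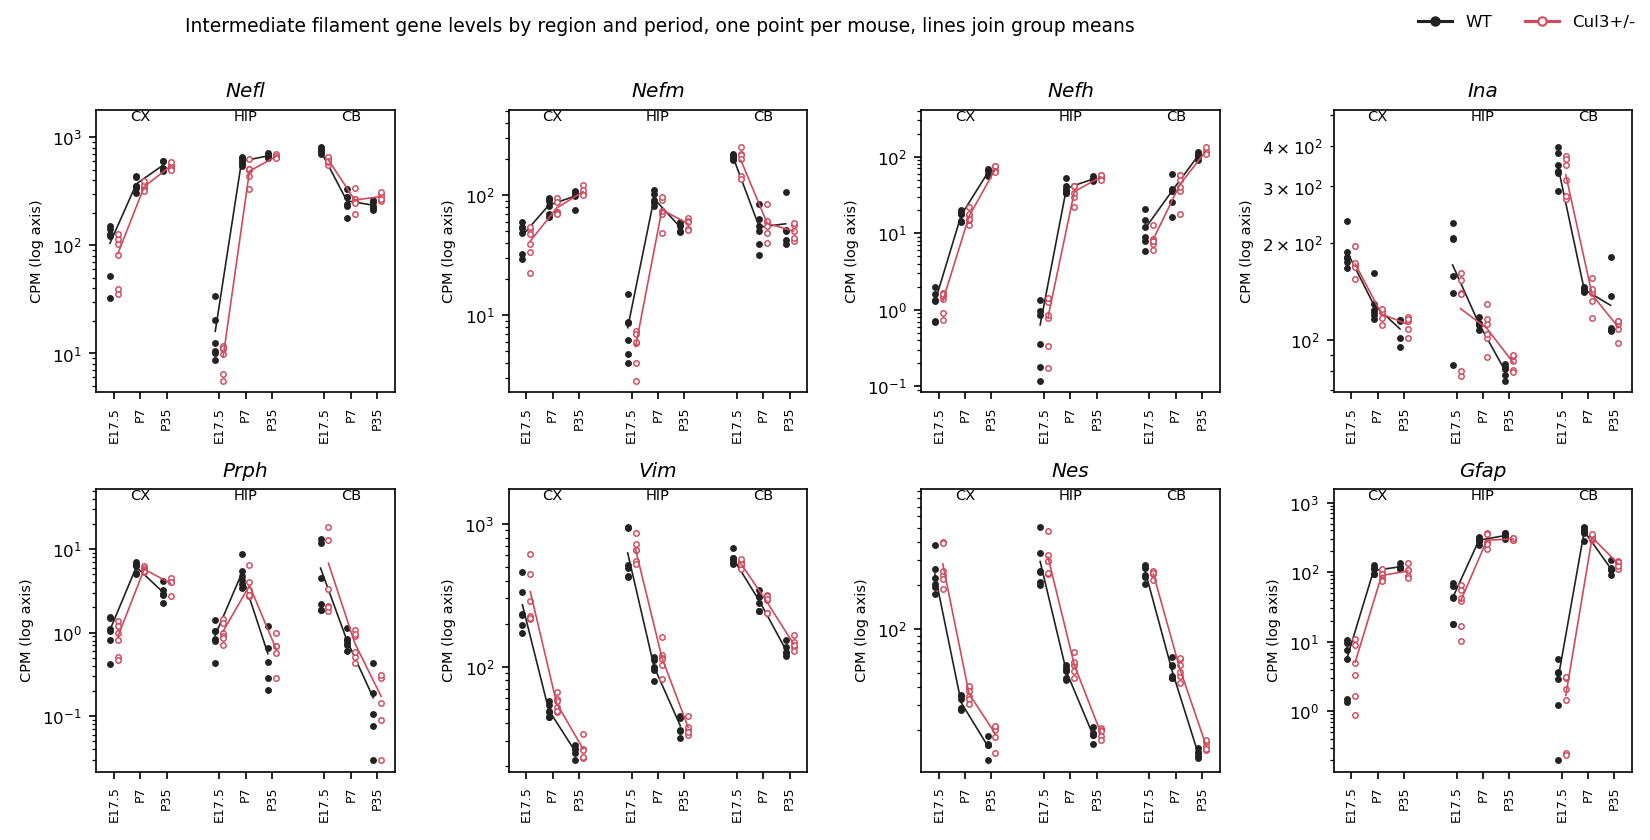
Levels of the 8 genes as CPM on a log axis, by region (CX, HIP, CB) and period (E17.5, P7, P35). Each point is 1 mouse, filled for WT and open for Cul3+/-, and lines join group means. Nefh is higher at P35 than at E17.5 in all 3 regions, Vim and Nes are lower, and Nefl is higher in CX and HIP but lower in CB.

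Nefl (ENSMUSG00000022055, GRCm38 chr14:68083863-68089095, plus strand) codes for the light subunit, without which neurofilaments do not form in the axon. In WT E17.5 CB it ranged from 697 through a median of 755 to 813 CPM. In WT E17.5 HIP it ranged from 8.71 through a median of 11.5 to 33.8 CPM, and the regions were 47.1-fold apart in mean. This was the widest regional gap of Nefl at any period, and all 6 mice showed it. By P7 the order had turned. WT HIP then held 601 ± 43.6 CPM, WT CX 370 ± 52.9 CPM and WT CB 259 ± 54.0 CPM (SD, n = 6 each). At P35 the 5 WT mice had 663, 682, 719, 641 and 662 CPM in HIP, 523, 609, 514, 609 and 491 CPM in CX, and 261, 222, 213, 231 and 249.9 CPM in CB. Adult levels thus stood 42.0-fold above the embryonic mean in HIP and 5.24-fold above it in CX, while in CB the embryonic mean was 3.21-fold above the adult mean. Ordered by WT mean, E17.5 CB, P35 HIP, P7 HIP and P35 CX each overlapped the next in range, a gap without overlap followed before P7 CX, and another before E17.5 CX.

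Nefm (ENSMUSG00000022054, main transcript at chr14:68119283-68124846, minus strand), the medium subunit, lies beside Nefl on the opposite strand, with 30187 bases between the main transcripts. A longer annotated Nefm transcript shares 1108 exon bases with Nefl, which has 3380 exon bases. Whether counting used strand is not given in the sources used here, so part of either count could belong to the other gene. The size of that part was not measured. In WT CB, Nefm was at 209 ± 9.12 CPM at E17.5, 54.3 ± 18.8 CPM at P7 (n = 6 each) and 57.9 ± 27.8 CPM at P35 (SD, n = 5). In WT HIP it went from 7.88 ± 3.97 to 93.9 ± 10.8 CPM between E17.5 and P7, 11.9-fold, and was at 54.1 ± 4.53 CPM at P35, 1.73-fold below P7 without overlap. The adult mean of Nefl in HIP was 1.12-fold its P7 mean. In WT CX, Nefm was at 46.4 ± 12.7, 82.6 ± 12.5 and 98.6 ± 13.7 CPM over the 3 periods. In the order of WT groups, E17.5 CB stood above all others and E17.5 HIP below all others without overlap, and the 7 groups between them overlapped each with the next.

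Nefh (ENSMUSG00000020396, chr11:4938754-4948064, minus strand) codes for the heavy subunit and had the widest range of the family, 162-fold between the highest and the lowest WT group mean. In WT CX, its level was 1.26 ± 0.495 CPM at E17.5, 17.2 ± 2.49 at P7 (n = 6 each) and 61.0 ± 5.65 at P35 (SD, n = 5). It was the only 1 of the 8 genes that stood at least 2-fold higher without overlap between P7 and P35 in WT CX, where 8.46% of 20859 genes did so, and likewise in WT CB, against 13.4% of genes. In WT HIP the corresponding means were 0.634, 38.7 and 50.8 CPM. In WT CB they were 11.7, 35.2 and 103 CPM, and the 5 adult mice had 109, 98.5, 114, 103 and 89.4 CPM, above every other WT library of any region or period. E17.5 CX and E17.5 HIP overlapped in range at the bottom of the order, with HIP libraries down to 0.118 CPM.

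The heavy subunit's tail is built from a repeated lysine-serine-proline motif whose serines are phosphorylated in axons. In the coding sequence of the main transcript, 51 in-frame runs of lysine, serine and proline codons were found in Nefh, 4 in Nefm, 5 in Nes and none in the coding sequences of Nefl, Ina, Prph, Vim and Gfap. The stretch with the densest runs, coding bases 1549 to 1698 at chr11:4940920-4941069 (GRCm38, minus strand, Gencode transcript), is shown because this repeat sets Nefh apart from its partner subunits. Capitals mark the 8 codon runs.

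Nefh: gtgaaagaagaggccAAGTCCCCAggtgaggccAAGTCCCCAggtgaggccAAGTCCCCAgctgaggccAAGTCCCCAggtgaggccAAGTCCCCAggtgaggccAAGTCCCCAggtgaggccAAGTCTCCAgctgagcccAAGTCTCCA

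Ina (ENSMUSG00000034336, chr19:47014698-47025327, plus strand) had the narrowest range of the family, 4.34-fold between WT group means. WT CB was highest at every period by mean, with 347 ± 38.3 CPM at E17.5, 143 ± 1.71 CPM at P7 (n = 6 each) and 128 ± 31.9 CPM at P35 (SD, n = 5). In WT CX the means were 188, 129 and 108 CPM, and in WT HIP 171, 112 and 80.1 CPM. Ina was thus lower in adults than in embryos in all 3 regions, the reverse of Nefh. The embryonic ranges were separate from the adult ranges in CX and CB and touched in HIP, where E17.5 libraries ran from 83.6 to 230.5 CPM. An exon of Ina overlaps an exon of Nt5c2 on the opposite strand by 456 bases, so the same reservation about strand applies.

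Prph (ENSMUSG00000023484, chr15:99055174-99058978, plus strand) was the lowest of the 8 genes per length in adult WT brain, at 1.65 CPM per kb of the main transcript in CX, 0.299 in HIP and 0.0891 in CB. It had a postnatal maximum in the forebrain. WT CX held 1.07 ± 0.426 CPM at E17.5, 6.08 ± 0.819 at P7 (n = 6 each) and 3.07 ± 0.663 at P35 (SD, n = 5). WT HIP held 0.928 ± 0.330, 5.05 ± 1.92 and 0.557 ± 0.394 CPM, so that P35 lay 9.07-fold below P7. In WT CB, Prph was at 5.91 ± 5.24 CPM at E17.5, 0.808 ± 0.176 at P7 and 0.166 ± 0.157 at P35. The E17.5 CB libraries split: 4 of them (WT replicates 1 and 3, Cul3+/- replicates 3 and 4) held 11.8 to 18.5 CPM and the other 8 held 1.80 to 4.53 CPM. Those 4 libraries also had the highest sums over 12 brainstem marker genes, 42.7 to 73.5 CPM against at most 36.9 CPM in the others. The part of the brainstem markers in the result was not tested.

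Vim (ENSMUSG00000026728, chr2:13573927-13582826, plus strand) was highest in E17.5 HIP, at 624.7 ± 251 CPM, and E17.5 CB, at 574 ± 54.0 CPM (SD, n = 6 each), whose ranges overlapped. WT CX went from 270 ± 108 CPM at E17.5 through 49.5 ± 5.10 at P7 to 25.5 ± 2.35 at P35 (n = 5), a 10.6-fold difference between the first and the last. The corresponding difference was 16.3-fold in HIP and 4.36-fold in CB. In adults, CB therefore stood 5.17-fold above CX and 3.43-fold above HIP, in 5 of 5 mice each. The 5 adult WT mice had 123, 138, 126, 154 and 118.02 CPM in CB against 22.02, 24.6, 28.3, 26.3 and 26.3 CPM in CX.

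Nes (ENSMUSG00000004891, chr3:87971078-87980451, plus strand) shared the embryonic maximum and lay closer together across adult regions than Vim. WT means at E17.5 were 240 ± 74.6 CPM in CX, 292 ± 116 in HIP and 247 ± 28.1 in CB (SD, n = 6 each), with overlapping ranges. At P35 they were 15.6 ± 2.10, 18.6 ± 1.75 and 13.8 ± 0.847 CPM (SD, n = 5 each), between 15.3-fold and 17.8-fold below the embryonic means. Adult CX and adult CB overlapped in range, as did adult CX and adult HIP, while adult HIP lay 1.35-fold above adult CB in 5 of 5 mice without overlap. Summed over 12 marker genes of radial glia and progenitors, WT CX went from 1054 CPM at E17.5 to 157 at P35, and WT CB from 1500.4 to 319 CPM.

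Gfap (ENSMUSG00000020932, chr11:102887336-102900912, minus strand) went the other way, and its course differed between regions. In WT CB it was almost absent at E17.5, at 2.85 ± 1.92 CPM, and reached 387 ± 62.5 CPM at P7 (SD, n = 6 each), 136-fold higher and the highest WT group mean of this gene. At P35 the CB level was 114 ± 21.4 CPM (n = 5), 3.39-fold below P7 without overlap. In CX and HIP the adult mean was above the P7 mean. WT CX held 6.02 ± 3.93, 106 ± 13.1 and 119 ± 9.21 CPM, and WT HIP 42.7 ± 21.9, 287 ± 27.6 and 336 ± 28.7 CPM. Adult HIP was 2.82-fold above adult CX in 5 of 5 mice. The sum over 12 astrocyte marker genes, Gfap not among them, went from 2773 CPM at P7 to 6786 CPM at P35 in WT CB. The sum over 10 genes of reactive astrocytes in the same region was 48.3 CPM at P7 and 28.8 CPM at P35.

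In WT mice, 4 of 8 genes stood at least 2-fold higher without overlap at P7 than at E17.5 in CX (Nefl, Nefh, Prph and Gfap) and 2 lower (Vim and Nes), against 19.4% and 10.4% of 20859 genes. In HIP, 5 stood higher and 2 lower, against 13.9% and 8.44% of genes. In CB, 1 stood higher (Gfap) and 5 lower (Nefl, Nefm, Ina, Prph and Nes), against 7.89% and 7.15%. From P7 to P35, 1 stood higher and 0 lower in CX, against 8.46% and 9.27%. There the mean of Prph was 1.98-fold, of Vim 1.94-fold and of Nes 1.98-fold lower at P35, just short of the 2-fold mark. In HIP 0 stood higher and 3 lower (Prph, Vim and Nes), against 6.22% and 8.07%, and in CB 1 higher and 4 lower (Prph, Vim, Nes and Gfap), against 13.4% and 14.2%. From E17.5 to P35, 5 stood higher and 2 lower in CX, against 22.8% and 17.8%, 4 higher and 2 lower in HIP, against 18.4% and 15.4%, and 2 higher and 6 lower in CB, where 3498 and 3648 of the genes did so. Since the genes were chosen for such differences, nothing is read from these shares. In Cul3+/- mice the genes listed for a step were the same for HIP in both steps. In CX they were the same from E17.5 to P7, and Vim joined from P7 to P35. In CB, Nefh joined from E17.5 to P7 and Vim was missing from P7 to P35.

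Because a filament is a copolymer, the makeup of the subunit RNA was computed per length: CPM divided by the length of the main transcript, as a percentage of the sum over Nefl, Nefm, Nefh and Ina. In WT E17.5 HIP, Ina made up 87.8% ± 4.60 of that sum and Nefl 8.07% ± 3.68 (SD, n = 6). At P35 in HIP, Ina made up 9.77% ± 0.460 and Nefl 78.8% ± 1.21 (SD, n = 5). In CX the share of Ina was 57.5% ± 13.6 at E17.5 and 13.9% ± 0.970 at P35, and that of Nefl 28.9% ± 11.4 and 67.5% ± 1.297. CB did not show this exchange. There, Nefl made up 56.4% ± 2.11 at E17.5 and 46.3% ± 6.81 at P35, Ina 27.01% ± 2.51 and 25.7% ± 3.76, and the share of Nefh went from 0.745% ± 0.369 to 16.9% ± 1.06. Adult Nefh shares were 6.35% ± 0.254 in CX and 5.04% ± 0.387 in HIP, with no overlap between CB and either. In adult Cul3+/- mice the Nefh share in CX was 7.08%, from 6.85% to 7.37%, above the WT range of 6.05% to 6.69%, and the difference of shares was not tested. The genotypes overlapped in adult HIP (5.11% to 5.73% in Cul3+/-, 4.62% to 5.66% in WT) and in adult CB (17.6% to 18.8% and 15.9% to 18.0%). The summed subunit RNA went from 60.1 ± 19.2 to 253 ± 8.81 CPM per kb in WT HIP and from 103 ± 14.1 to 241 ± 22.9 in WT CX between E17.5 and P35, but from 396 ± 15.9 to 152 ± 16.5 in WT CB. The reservation about strand for Nefl, Nefm and Ina applies to these shares and sums.

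**Figure D2:**
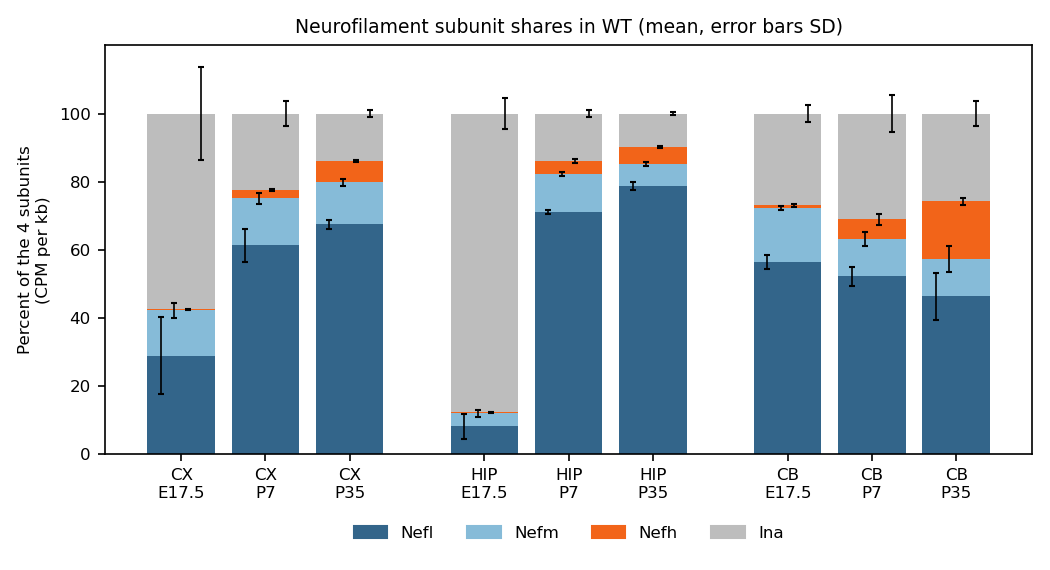
Makeup of neurofilament subunit RNA in WT mice, as percent of the sum of CPM per kb over Nefl, Nefm, Nefh and Ina, by region and period. Stacked bars are means of 6 mice (5 at P35) and error bars are SD. Ina fills most of the bar in E17.5 CX and HIP and Nefl does so at P7 and P35, while in CB the Nefh band is widest at P35, at 16.9%.

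The ratio of Gfap to Vim RNA per length showed a regional difference of its own. In WT mice it went from 0.0240 at E17.5 to 3.89 at P35 in CX and from 0.0713 to 7.31 in HIP. In CB it went from 0.00415 at E17.5 to 1.144 at P7 and 0.727 at P35, so in adult CB, alone among the 3 adult regions, Vim RNA per length exceeded Gfap RNA in all 5 WT mice (highest ratio 0.979).

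Promoter windows of 250 bases before the RefSeq start (GRCm38.p6) were read for 5 of the 8 genes. Nefl, Nefm and Nefh had no entry. The window of Vim (chr2:13574061-13574310) begins after the start of its main Gencode transcript, at 13573952, so it is not upstream of that transcript. TATAAA on either strand was found in the windows of Prph and Vim, against 12.4% of 32851 promoters, and GGGCGG in those of Ina, Prph and Nes, against 32.7%. CCAAT was found in that of Vim only, against 33.8%. None of the 5 windows held TGACTCA (the AP-1 motif), TGACGTCA (the cAMP response element) or TTCCNNGAA (a STAT-type motif), which 4.46%, 1.55% and 4.06% of promoters hold. GC content was 70.8% for Ina, 65.2% for Prph, 58.8% for Nes, 58.4% for Vim and 55.6% for Gfap, against a median of 52.4%. Shown are a neuronal, a progenitor and an astrocyte gene with different courses: Prph (chr15:99054924-99055173, plus strand), with a TATA box 31 bases and a GC box 24 bases before the start, Nes (chr3:87970843-87971092, plus strand), with 2 GC boxes, and Gfap (chr11:102897201-102897450, minus strand), with neither. Capitals mark TATAAA as well as GGGCGG and also CCAAT on either strand. The matches are letters in a window and not sites of binding.

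Prph: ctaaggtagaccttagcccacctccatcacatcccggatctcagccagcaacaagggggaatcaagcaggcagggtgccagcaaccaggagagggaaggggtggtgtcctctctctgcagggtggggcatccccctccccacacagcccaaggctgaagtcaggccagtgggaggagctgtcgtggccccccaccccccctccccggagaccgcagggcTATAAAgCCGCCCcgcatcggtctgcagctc

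Nes: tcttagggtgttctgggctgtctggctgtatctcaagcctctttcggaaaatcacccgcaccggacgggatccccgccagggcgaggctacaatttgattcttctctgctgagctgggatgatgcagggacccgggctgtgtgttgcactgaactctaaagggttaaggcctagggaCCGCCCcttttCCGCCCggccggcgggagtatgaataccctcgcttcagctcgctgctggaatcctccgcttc

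Gfap: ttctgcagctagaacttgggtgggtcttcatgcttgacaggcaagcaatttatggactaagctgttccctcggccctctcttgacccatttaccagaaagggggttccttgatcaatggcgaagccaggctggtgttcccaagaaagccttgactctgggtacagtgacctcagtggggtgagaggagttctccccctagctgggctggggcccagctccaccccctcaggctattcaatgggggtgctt

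The genes whose log2 CPM ran most like each member over the 51 WT libraries were sought among 15226 genes. The points share mice, regions and periods, and Pearson's r is given as a description. Nefl was closest to Nefm (r = 0.906), Slc27a2 (0.899) and Epha10 (0.882), and Nefm, after Nefl, to Slc27a2 (0.830) and Tmem132d (0.824). Nefl and Nefm share exon bases, so the reservation about strand applies to the r between them. Nefh was closest to Sparcl1 (0.980), Krt222 (0.963) and S100b (0.961), of which S100b is on the list of astrocyte markers used here. Ina was closest to Samd10 (0.900), Nrg1 (0.896) and Zfp618 (0.877), and Prph to the microtubule gene Map6 (0.851), Fsd1 (0.836) and Stmn4 (0.834). Vim was closest to the growth factor gene Mdk (0.976), Col2a1 (0.973) and Cand2 (0.969), Nes to Igf2bp1 (0.980), Zfp663 (0.969) and Zfp202 (0.967), and Gfap to Scrg1 (0.939), Dcn (0.937) and Tgfbr2 (0.935). Within the family, r was 0.847 for Vim with Nes, -0.863 for Nefh with Nes and -0.801 for Ina with Gfap.

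Whether Cul3+/- mice differed from WT mice was tested in each dataset with edgeR's quasi-likelihood test, at a Benjamini-Hochberg adjusted p of 0.1 over all genes. None of the members passed in any of the 9 datasets, where Cul3 alone was called. The share of genes called was 0.00603% in E17.5 CX, 0.00586% in E17.5 HIP, 0.00568% in E17.5 CB, 0.00566% in P7 CX, 0.00563% in P7 HIP, 0.0057% in P7 CB, 0.00569% in P35 CX, 0.00584% in P35 HIP and 0.00584% in P35 CB. At an unadjusted p under 0.05, no member was higher or lower in E17.5 CX (0.585% of genes higher and 1.08% lower). The replicate number was also used as a block in every dataset, with values given here for E17.5 CX alone, chosen from correlations in the same data. With this block, Vim (0.27) and Nes (0.22) were higher and Nefl (-0.29) lower on the log2 scale by the same edgeR test. Their unadjusted p were 0.00121, 0.00604 and 0.0383 and their adjusted p 0.142, 0.210 and 0.335. In E17.5 HIP and E17.5 CB, Nefl was lower (0.979% and 1.84% of genes) and none was higher (1.31% and 1.66%). In P7 CX, Nes was higher (1.52%) and Gfap lower (1.7%). In P7 HIP, Nefl and Nefm were lower (1.6%) and none higher (3.45%), and in P7 CB Gfap was lower (1.11%) and none higher (3.78%). In P35 CX, Nefh, Nes and Prph were higher (2.07%) and none lower (1.59%). In P35 HIP, Gfap was lower (2.84%) and none higher (3.4%). In P35 CB, Nefl, Nefh and Nes were higher (5.71%) and none lower (8.66%). The median log2 fold change of the members was between -0.14 (E17.5 CX) and 0.02 (P7 CB) at E17.5 and P7, and 0.11, 0.07 and 0.16 in P35 CX, HIP and CB, while the median over all genes tested was at most 0.00692, in P7 HIP, and at least -0.00278, in P35 HIP. Some other short lists lay further from 0, as oligodendrocyte markers in P7 CX (-0.20) and microglia markers in P35 CB (0.21). Genes for kinases and phosphatases of the filament tails had medians between -0.05 (P7 HIP) and 0.01 (P7 CX). DESeq2 called a member in 1 dataset and RUVs, the study's removal of unwanted variation, in several, as given beside each gene. The RUVs fits here used upper-quartile scaling and a likelihood ratio test. They thus differed from the main fits in scaling and test as well as in the factors. The factors were taken from the spread among mice of the same genotype, so the genotype labels entered them. Calls by RUVs are therefore given as alternatives and not as separate evidence.

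**Figure D3:**
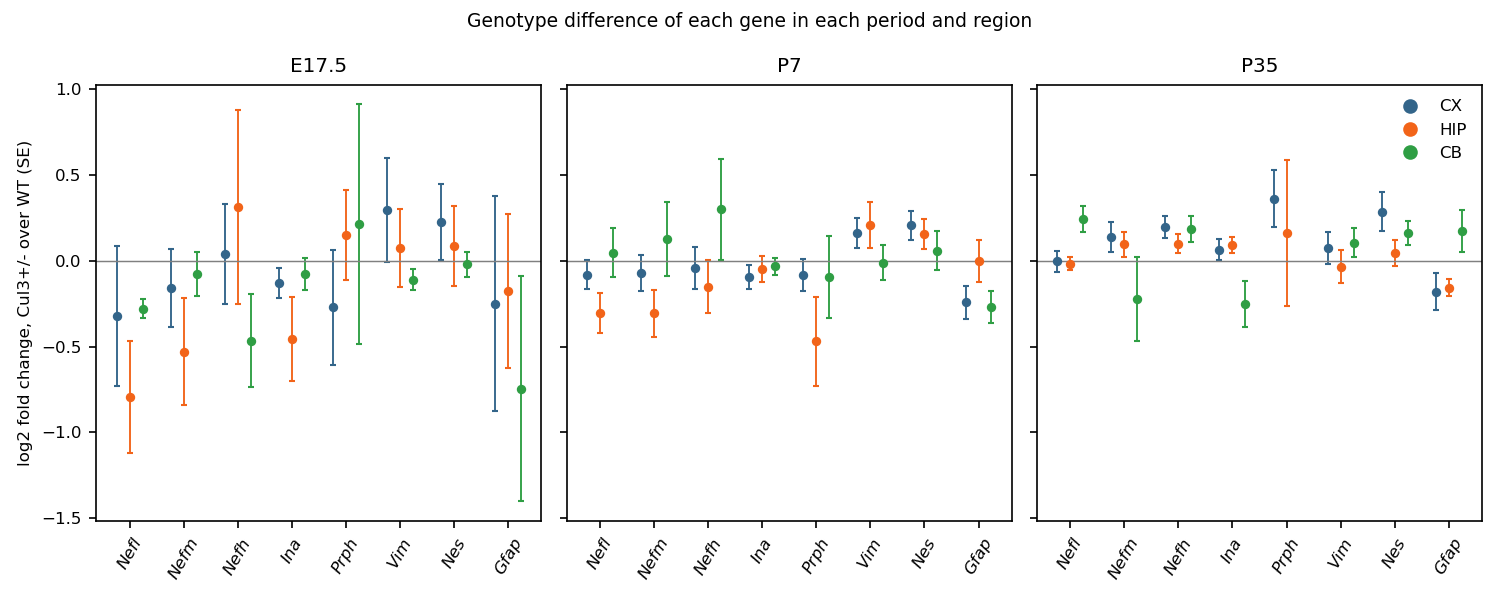
Log2 fold change of each gene in Cul3+/- over WT mice with its SE from edgeR's quasi-likelihood fit, by period (panels) and region (colours), with 6 mice per genotype at E17.5 and P7 and 5 at P35. Prph is not drawn in P35 CB. Nefl lies below 0 in all 3 regions at E17.5 and Nefh above 0 in all 3 at P35, none past the adjusted threshold.

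The smallest unadjusted p of a member was that of Nefl in E17.5 CB. The 6 WT mice ranged from 697 through a median of 755 to 813 CPM and the 6 Cul3+/- mice from 552 through 626 to 656 CPM. Every mutant thus lay below every WT mouse. The log2 fold change was -0.28 (SE 0.055), with an unadjusted p of 0.00018 and an adjusted p of 0.988 by edgeR. DESeq2 called it (adjusted p 0.00103, log2 fold change -0.28), as did RUVs with 3 and 5 factors (adjusted p 0.0126 and 0.00363). Over all alternatives the adjusted p ran from 0.00103 to 1 and the log2 fold change from -0.30 to -0.23. In this dataset, 11 of 11 tested markers of pericytes, mesenchyme and meninges had higher values in mutants (median log2 fold change 0.27) and 2 of 10 neuron markers did (median -0.06). So did 8 of 10 endothelial, 1 of 7 tested cerebellar and 1 of 6 tested brainstem markers, against 9011 of 17621 genes. The part of these markers in the result was not tested. Nefl was also lower by mean in the other embryonic regions. In E17.5 HIP, WT mice ranged from 8.71 through 11.5 to 33.8 CPM and Cul3+/- mice from 5.604 through 10.5 to 11.7 CPM, and the log2 fold change was -0.79 (SE 0.32, adjusted p 0.941). RUVs with 5 factors called it (adjusted p 0.00211, log2 fold change -0.51), and the adjusted p ran from 0.00211 to 1 over the alternatives. Without WT replicate 6, the highest library, it was -0.44. In the same dataset 0 of 10 neuron markers and 0 of 8 tested choroid plexus and ependymal markers had higher values in mutants (medians -0.17 and -1.26), and the part of these markers in the results was not tested. In E17.5 CX it was -0.32 (SE 0.41), with broad overlap. Averaged over the 3 regions of each mouse with limma-voom, Nefl differed by -0.43 (SE 0.22) on the log2 scale at E17.5, with an adjusted p of 0.997.

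**Figure D4:**
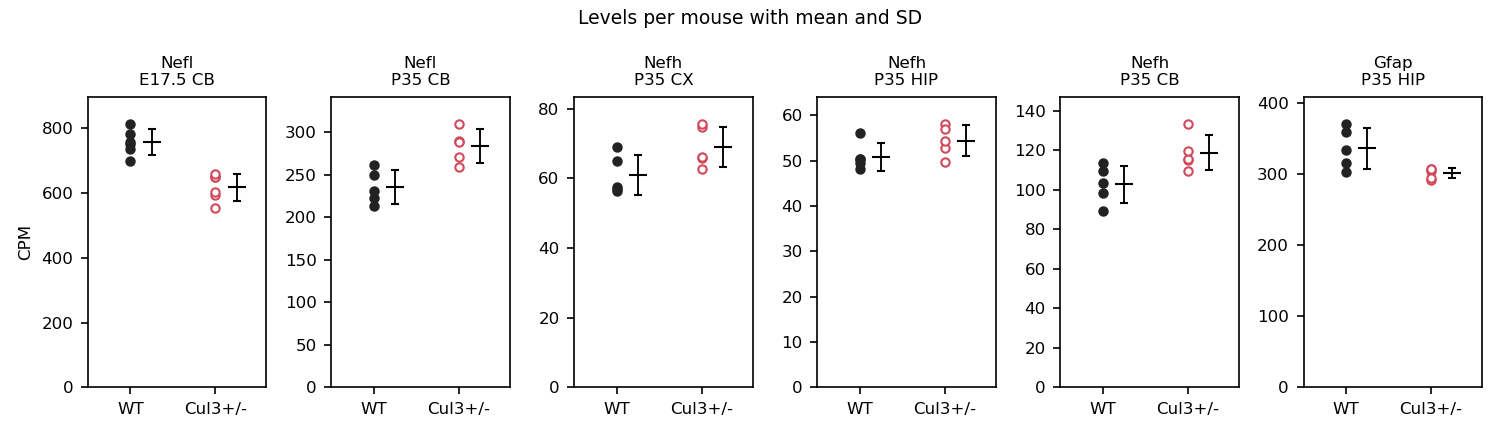
Levels per mouse, in CPM on axes from 0, of Nefl in E17.5 CB and P35 CB, Nefh in the 3 regions at P35 and Gfap in P35 HIP, in WT (filled) and Cul3+/- (open) mice, with mean and SD beside them. The genotypes do not overlap for Nefl in E17.5 CB, and overlap in range in the other 5 panels.

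In P35 CB, Nefl stood on the other side. The 5 WT mice had 261, 222, 213, 231 and 249.9 CPM and the 5 Cul3+/- mice 289.7, 258, 288, 309.6 and 271 CPM. The ranges overlapped only between the highest WT mouse and the lowest mutant. The log2 fold change was 0.24 (SE 0.074, adjusted p 0.295). RUVs with 5 factors called it (adjusted p 0.0686, log2 fold change 0.21), and the adjusted p ran from 0.0686 to 0.569 over the alternatives. In P35 CB, 10 of 10 oligodendrocyte markers and 10 of 10 microglia markers also had higher values in mutants (median log2 fold changes 0.35 and 0.21), 4 and 7 of them at an unadjusted p under 0.05, and their part in the results of this dataset was not tested. In adult CX and HIP the difference was near 0, at -0.00 (SE 0.061) and -0.02 (SE 0.036). The change of the genotype effect over the 3 periods in CB had an unadjusted p of 0.00394 for Nefl and an adjusted p of 0.307, with a range of 0.118 to 0.570 over its alternatives. None of the 19416 genes was called by edgeR (0%, with 2570 at an unadjusted p under 0.05), and the corresponding tests in CX and HIP called none either. DESeq2 called 95 genes in CB, 0 in CX and 1 in HIP, no member among them. For the change over the 3 adult regions, Nefl had an unadjusted p of 0.00828 and an adjusted p of 0.255, and Ina of 0.0156 and 0.266, in a test where 3000 of 19034 genes had an unadjusted p under 0.05. In P7 HIP, Nefl was at 601 ± 43.6 CPM in WT and 486 ± 98.2 in Cul3+/- mice (SD, n = 6 each), and Nefm at 93.9 ± 10.8 and 75.9 ± 17.3 CPM. Both log2 fold changes were -0.31 (SE 0.12 and 0.14, adjusted p 0.833). RUVs called Nefl with 3 and 5 factors (adjusted p 0.0710 and 0.0783) and Nefm with 5 factors (0.0991), and over the alternatives the adjusted p of either ran up to 0.995. Of 10 neuron markers 1 had a higher value in mutants in P7 HIP (median log2 fold change -0.14), while 10 of 10 choroid plexus and ependymal markers did (median 1.36), 7 of them at an unadjusted p under 0.05. The part of these markers in the results was not tested. Cul3+/- replicate 1, which had the highest sum of choroid plexus and ependymal markers in P7 HIP, was the lowest library for Nefl, and without it the values were -0.22 and -0.21.

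Nefh was higher by mean in adult Cul3+/- mice in all 3 regions. In P35 CX the 5 WT mice had 57.6, 68.9, 56.4, 65.0 and 56.9 CPM and the mutants 65.8, 74.8, 66.3, 75.7 and 62.8 CPM. The lowest mutants lay within the WT range. The log2 fold change was 0.20 (SE 0.064, adjusted p 0.997). In P35 CB, WT mice had 109, 98.5, 114, 103 and 89.4 CPM and mutants 115, 116, 119.8, 133 and 109 CPM, and the difference on the log2 scale was 0.19 (SE 0.076, adjusted p 0.343). In P35 HIP it was 0.10 (SE 0.056). In E17.5 HIP, where Nefh was below 1 CPM by mean, it was 0.31 (SE 0.56, adjusted p 0.945), and RUVs called it with 3 and 5 factors (adjusted p 0.0616 and 0.0548, log2 fold change 0.85 and 0.81). The adjusted p ran from 0.0548 to 1 over the alternatives. Averaged over regions with limma-voom, Nefh differed by 0.17 (SE 0.042), with an unadjusted p of 0.000501 and an adjusted p of 0.384. In that comparison 0.00525% of 19034 genes were called, and in the corresponding ones at P7 and E17.5 it was 0.031% and 0.00537%. When the 2 left-out adult mice were put back by their labels, Nefh was called in the mean over regions (adjusted p 0.0476, log2 fold change 0.20). The Cul3 levels of these mice were on the side of the labels. The lack of a call for Nefh in the main fit over regions thus depended on leaving them out. With genotypes from the sample table, which go against the Cul3 levels of these 2 mice, the P35 CX value was 0.07. With the replicate number as a block, the mean over regions was also called (adjusted p 0.0564). The labels do not say what same-numbered adult mice share. The median r of their deviations was 0.108 in CX, 0.190 in HIP and 0.162 in CB. The pairing may thus be arbitrary, and nothing is read from this call. RUVs called Nefh in P35 CX with 3 and 5 factors (adjusted p 0.0196 and 0.00783) and, with 5 factors, in P35 CB (0.0361). The adjusted p ran from 0.00783 to 1 over the alternatives in CX and from 0.0361 to 0.601 in CB. The adjusted p of the mean over regions ran from 0.0476 to 0.906 over its alternatives.

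Nefm and Ina in P35 CB rested on 1 library. WT replicate 3 held 106.8 CPM of Nefm against 38.9 to 51.5 in the other WT mice and 41.7 to 58.6 in the mutants, and 181 CPM of Ina against 107 to 137 in the other WT mice. Its brainstem marker sum was 50.6 CPM against 17.2 to 30.8 CPM in the other WT mice and 18.9 to 24.1 in the mutants, and the part of that tissue in the values was not tested. The log2 fold change of Nefm was -0.22 (SE 0.24) with this library and 0.11 without it. RUVs with 5 factors called Nefm in the other direction (log2 fold change 0.22, adjusted p 0.0612, and 0.0612 to 0.793 over the alternatives). That of Ina was -0.25 (SE 0.13) with it and -0.10 without it. Elsewhere Ina differed by 0.13 or less in either direction, except in E17.5 HIP, at -0.46 (SE 0.25, adjusted p 0.941).

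Prph, the peripheral neurons' subunit, had overlapping genotype ranges in all 9 datasets. Its largest log2 fold changes were -0.47 (SE 0.26) in P7 HIP, where WT mice ranged from 3.39 to 8.68 CPM and mutants from 2.73 to 6.42 CPM, and 0.36 (SE 0.17) in P35 CX, with adjusted p of 0.833 and 0.997.

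Vim and Nes, the progenitor genes, had overlapping genotype ranges in every dataset. In P7 CX, Nes ranged from 27.5 through 30.6 to 34.96 CPM in WT and from 30.4 through 35.8 to 40.3 CPM in Cul3+/- mice, and the log2 fold change was 0.21 (SE 0.084, adjusted p 0.900). In P35 CX the 5 WT mice had 15.7, 15.9, 18.3, 15.9 and 12.4 CPM and the mutants 20.9, 17.8, 19.9, 21.4 and 13.96 CPM, and the log2 difference was 0.29 (SE 0.11, adjusted p 0.997). Its mean over adult regions was 0.17 (SE 0.059, adjusted p 0.732). Vim differed by at most 0.30 in any dataset, in E17.5 CX (SE 0.30), where the 4 S3 mice set the spread.

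Gfap, the astrocyte gene, had negative log2 fold changes in 8 of 9 datasets, with -0.00 in P7 HIP, and a positive 1 in P35 CB. Regions of a period share mice, and the E17.5 values had SE of 0.63 in CX, 0.45 in HIP and 0.66 in CB. Nothing is read from this count. In P7 CB, WT mice ranged from 276 through 393 to 449.6 CPM and mutants from 292 through 313 to 348 CPM, and the log2 difference was -0.27 (SE 0.095, adjusted p 0.927). In P7 CX the values were 105.7 ± 13.1 and 89.2 ± 13.6 CPM (SD, n = 6 each), and the log2 fold change was -0.24 (SE 0.098, adjusted p 0.900). In P35 HIP the 5 WT mice had 302, 334, 370.4, 359 and 315 CPM and the mutants 291.7, 307, 304, 294 and 306 CPM. The mutants thus lay in a narrow band at the lower edge of the WT range, and the log2 difference was -0.16 (SE 0.050, adjusted p 0.796). In P35 CB the difference was 0.17 (SE 0.12). The change of the genotype effect across adult regions had an unadjusted p of 0.0101 for Gfap, with an adjusted p of 0.255, in a test that called 0.00525% of genes. RUVs with 3 factors called Gfap in P35 HIP (adjusted p 0.0574). RUVs with 5 factors called Gfap in P7 CB (adjusted p 0.000188, log2 fold change -0.31), in P35 HIP (0.0107, -0.14) and, in the other direction, in P35 CB (0.0493, 0.28). Over the alternatives the adjusted p ran from 0.000188 to 1 in P7 CB, from 0.0107 to 1 in P35 HIP and from 0.0493 to 0.671 in P35 CB.

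At E17.5 the levels differed between mice by the prefix of their names. The 4 mice with the prefix S3 were replicates 3 and 4 of either genotype. What the prefix stands for is not given in the sources used here. In CX, Gfap was at 0.870 to 1.64 CPM in S3 mice, 3.28 to 7.50 in S2 mice and 8.84 to 10.9 in S4 mice, 3 ranges that did not overlap, and HIP showed the same order with 10.2 to 17.9, 37.9 to 44.4 and 56.2 to 69.9 CPM. Nefl in CX was at 32.7 to 51.7 CPM in S3 mice and 81.6 to 151 CPM in the rest, and Vim in CX at 332 to 610 CPM and 171 to 289 CPM. In the same CX libraries, the sum over 10 neuron markers was 4627 to 5167 CPM in S3 mice and 6273 to 7189 CPM in the rest, and the sum over 12 progenitor markers 1292 to 1540 CPM and 749 to 1079 CPM. In CB the neuron sum was higher in S3 mice by mean (5509 CPM against 4927 and 4777 CPM) and the progenitor sum lower. The part of these marker sums in the result was not tested. With the prefix as a block, the Nefl genotype effect in CX was -0.29 with an SE of 0.12 in place of 0.41, and that of Gfap -0.30 with an SE of 0.17 in place of 0.63. In the same fit Vim differed by 0.27 (SE 0.0996) and Nes by 0.22 (SE 0.0812), with unadjusted p of 0.0174 and 0.0192. Nefl differed by -0.69 in HIP (SE 0.18, unadjusted p 0.00221) and Gfap by -0.85 in CB (SE 0.28, unadjusted p 0.0106). No member was called (adjusted p at least 0.642 in CX, 0.522 for Nefl in HIP, and 0.250 for Nefl and 0.569 for Gfap in CB). Without the S3 mice, Nefl differed by -0.34 in CX, -0.84 in HIP and -0.23 in CB.

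**Figure D5:**
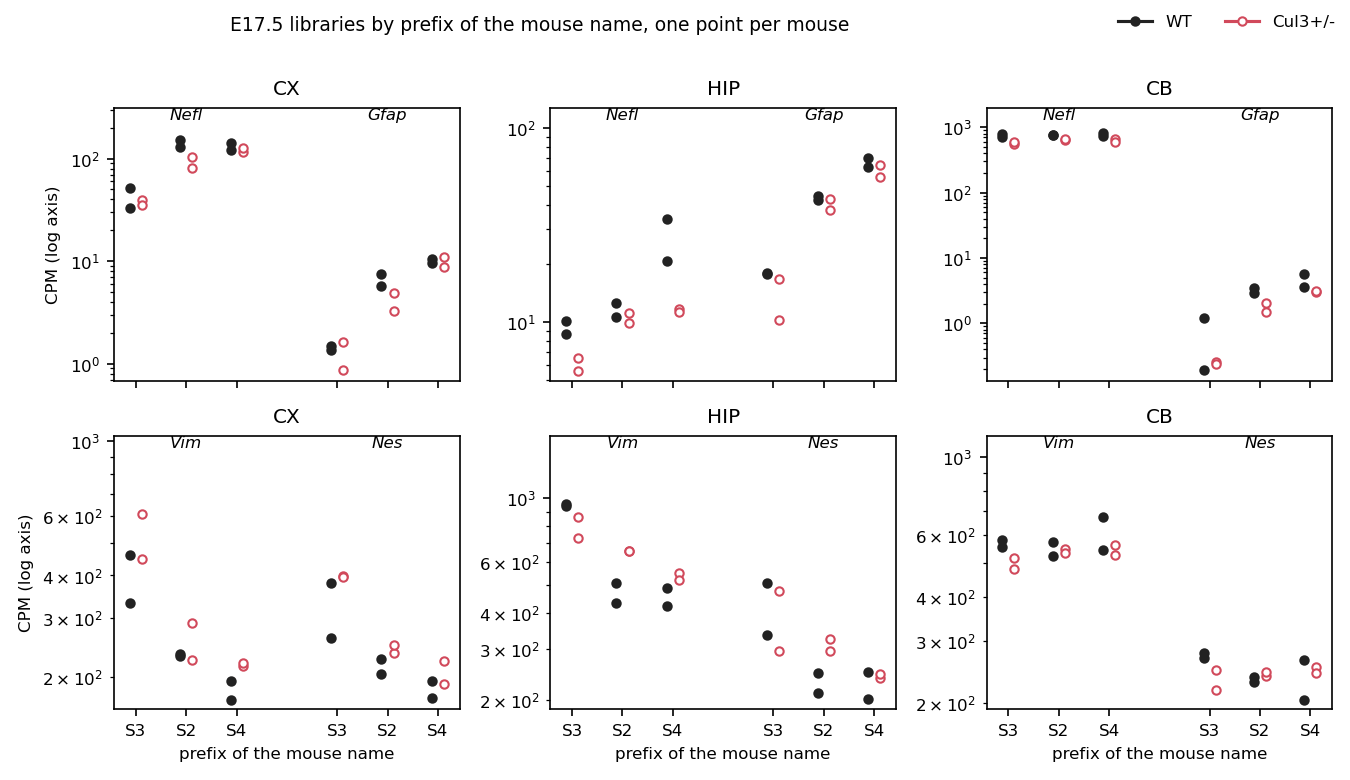
Levels of Nefl, Gfap, Vim and Nes in E17.5 mice by prefix of the mouse name (S3, S2, S4), in CPM on a log axis, 1 panel per region, with WT mice filled and Cul3+/- mice open. In CX and HIP the S3 mice are lowest in Gfap and include the highest Vim and Nes libraries, for both genotypes.

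Partner genes were examined in 3 lists, in each dataset by the same test. Of 23 intermediate filament genes, the 8 members included, 17 to 21 were tested per dataset and none was called. The smallest unadjusted p outside the 8 members belonged to Iffo2 in P35 CX (log2 fold change 0.18, SE 0.048, adjusted p 0.997), Iffo1 in P35 HIP (0.19, SE 0.055, adjusted p 0.796) and the nuclear lamin gene Lmna in P35 CB (0.17, SE 0.048, adjusted p 0.293). The log2 fold changes of the keratin genes Krt8 and Krt18 were 1.98 (SE 0.78) and 1.63 (SE 0.75) in P7 CB, with adjusted p of 0.978 and 0.994. They were 1.27 and 1.54 in P7 HIP (adjusted p 0.833) and -1.24 and -1.54 in P35 HIP (adjusted p 0.796), and Krt18 was at -2.19 in E17.5 HIP (adjusted p 0.941). The median over choroid plexus and ependymal markers was 1.27 in P7 CB, 1.36 in P7 HIP, -0.78 in P35 HIP and -1.26 in E17.5 HIP, and their part in the keratin values was not tested. Of 22 genes for linkers, motors, chaperones and turnover, 21 or 22 were tested and none was called. Uchl1, a neuronal ubiquitin hydrolase, differed in CB by -0.17 (SE 0.053) at E17.5 and 0.20 (SE 0.064) at P35, and adjusted p of 0.988 and 0.304. The small heat shock protein gene Hspb8 differed by 0.62 (SE 0.17) in P7 CB, with an adjusted p of 0.915. Of 20 genes for kinases and phosphatases of the filament tails, 19 or 20 were tested and none was called. Cdk5r2, an activator of the tail kinase Cdk5, differed by -0.18 (SE 0.053) in E17.5 CB, with an adjusted p of 0.988.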

How the data were processed

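Total RNA was depleted of ribosomal RNA, made into stranded libraries and sequenced as read pairs. The deposited values are expected counts per gene, which the authors made with cutadapt 1.14, STAR 2.5.3a and RSEM 1.3 on GRCm38 according to the submitters' processing notes. Of these values, 5.76% were not whole, and counts were rounded. Whether counting used strand is not given in the sources used here. Genes were matched to symbols by their Ensembl identifiers (53274 of 53465). Library totals ranged from 15126114 to 44411282, and 270 replicate pairs all differed by more than counting noise (chi-square per gene 4.71 to 161).

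Genotype was tested in R 4.3.3 with edgeR 4.0.16 (TMM, filterByExpr with a minimum count of 10 and total of 15, quasi-likelihood test, Benjamini-Hochberg adjusted p of 0.1 over all genes) in each of 9 datasets, for the change over periods in a region and over regions in a period with the mouse as a block. The mean over regions used limma 3.58.1 (voom, correlation within mice). Mice P35_22 and P35_23, whose genotypes conflict between sources, were left out, although their Cul3 levels were on the side of the labels. Alternatives were DESeq2 1.42.0, other scalings, no filter, RUVs with 3 or 5 factors (computed from its published steps), replicate blocks and leaving out each replicate. RUVs was run on upper-quartile scaling with edgeR's likelihood ratio test, with factors from the spread within each genotype. The study itself set the number of factors to the smallest that separated the genotypes. The deviations of same-numbered mice correlated above 0.1 in every pair only in E17.5 CX (0.113 to 0.759, median 0.474, against -0.0939 for other pairs). The numbers were used as a block in every dataset, and values of members with the block are given for E17.5 CX alone, a choice made from these same data. Same-numbered mice at E17.5 also shared a name prefix (S2, S3 or S4), so the correlation cannot tell a pair from a prefix. The same mice had the same numbers in E17.5 HIP and CB, where pairs ran down to -0.257 and -0.0238. In P7 CX the pairs ran from 0.0873 to 0.331 and in P35 CX from 0.0123 to 0.271. With that block 56 genes were called in E17.5 CX in place of 1, and 0 members.

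The genes and lists were chosen with earlier results of these data known. Named are the 8 genes, Cul3, the 3 genes most like each member over WT libraries of at least 1 CPM in mean, and list genes that were called or had one of the 3 smallest p of their list. One gene that this rule names is not reported here. The main fits were tested on simulated counts for genotype in P35 CX, genotype by period in CX, and genotype by region and over regions at P35. RUVs, DESeq2, the blocks by replicate or prefix and the descriptive values were not tested in that way.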

Additional observations from a re-analysis of the deposited data

Results flagged for a closer look

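In 8 of 144 groups of a gene, region, period and genotype, 1 library stood far from the rest of its group, with a gap to the nearest value that passed Dixon's 95% limit for the group size. That is 5.56% of groups, where chance gives 5%. For Nefm these were WT replicate 6 in P35 CX, at 74.8 CPM with the others at 99.2 to 108, and WT replicate 3 in P35 CB, at 106.8 CPM with the others at 38.9 to 51.5. For Nefh they were Cul3+/- replicate 5 in E17.5 CB, at 12.9 CPM with the others at 5.99 to 8.32, and WT replicate 5 in P35 HIP, at 56.0 CPM with the others at 48.1 to 50.3. For Ina they were WT replicate 3 in E17.5 CX, at 233.7 CPM with the others at 168 to 188, and WT replicate 4 in P7 CX, at 161.7 CPM with the others at 116 to 129. Prph stood at 6.42 CPM in Cul3+/- replicate 3 of P7 HIP, with the others at 2.73 to 4.00, and Nes at 475.9 CPM in Cul3+/- replicate 3 of E17.5 HIP, with the others at 238 to 324.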

How the results depend on the processing

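No member was called in any dataset by the main test. RUVs with 3 factors called 1 member in E17.5 HIP, E17.5 CB, P35 CX, P35 HIP and P7 HIP, among 64, 11, 33, 190 and 129 genes. With 5 factors it called 2 members in E17.5 HIP and in P7 HIP, 1 in E17.5 CB, P35 CX, P35 HIP and P7 CB, and 4 in P35 CB, among 194, 207, 61, 83, 478, 260 and 177 genes. DESeq2 called 1 member, among 2 genes, in E17.5 CB. Nefm in P35 CB turned from -0.22 to 0.22 on the log2 scale with 5 factors (adjusted p 0.0612, and 0.0612 to 0.793 over its alternatives). The cause was not tested. For the mean over regions at P35, 1 member was called with the replicate block (19 genes) and with all mice by the labels (12 genes). The replicate block changed no other call of a member. It raised the genes called from 1 to 32 at E17.5 and from 6 to 23 at P7, and to 4 from 1 in P35 CX and P35 HIP, and left 0 in P35 CB. DESeq2 called 218 genes in P35 CB, 4 in P35 CX, 3 in P35 HIP, P7 CX and P7 CB and 6 in P7 HIP, and RUVs called 14 and 45 in P7 CX with 3 and 5 factors and 67 in P7 CB and 68 in P35 CB with 3, with 0 members each. The likelihood ratio test called 150 genes in P35 CB, 56 for the change over periods in CB and 74 for the change over adult regions, where DESeq2 called 265. In the mean over regions at P35, 55 genes were called without WT replicate 3 and 26 without Cul3+/- replicate 4. Prph in P35 CB, not tested with the filter, has no alternative values. Leaving out single mice called no member in any genotype, interaction or mean test.

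Members at least 2-fold apart without overlap in WT CX between P7 and P35 numbered 1, against 8.46% of genes higher and 9.27% lower. They numbered 2 in Cul3+/- mice, against 9.24% and 9.49% of genes. On library totals they numbered 4, and on leaving out a mouse 1 to 4. The shares of all genes were not computed for library totals or on leaving out a mouse, and nothing is read from these counts. Left out by mouse, the counts were as follows. Members apart were 2 without WT replicate 1, 4 or 5 and 4 without WT replicate 3. Single values that rested on 1 library were Ina in E17.5 CX (-0.13, and -0.04 without WT replicate 3), Ina in P7 CX (-0.09, and -0.02 without WT replicate 4) and Prph in P35 HIP (0.16, and 0.66 without WT replicate 5). Vim in E17.5 HIP was 0.07, and 0.34 without the S3 mice, a setting chosen after seeing the data. Scaling by library total in place of TMM shifted the log2 levels of a dataset by up to 0.16 in either direction (E17.5 CB 0.16, P35 HIP -0.16). These are shifts of levels by region and period, not of the fold changes between genotypes. Comparisons between regions or periods move by the difference between such shifts. Prph in adult CB and HIP lay below 1 CPM on average, where depth limits precision.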
